A study of Arabidopsis thaliana with 6 samples.

Results

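The MADS-box genes described here are 9 MIKC-type transcription factor genes of ovule and seed: STK, SHP1, SHP2, TT16, GOA, SEP3, AGL15, AGL18 and PI. They were chosen by locus number for their roles in ovule and seed, and all 9 were found among the 33602 loci measured: AT4G09960 (STK), AT3G58780 (SHP1), AT2G42830 (SHP2), AT5G23260 (TT16), AT1G31140 (GOA), AT1G24260 (SEP3), AT5G13790 (AGL15), AT3G57390 (AGL18) and AT5G20240 (PI). They lie on chromosomes 1 (GOA, SEP3), 2 (SHP2), 3 (SHP1, AGL18), 4 (STK) and 5 (TT16, AGL15, PI). Poly(A) RNA was sequenced from Arabidopsis thaliana F1 endosperm nuclei, isolated at 4 days after pollination with INTACT, a method that captures nuclei by a tag on their envelope. In Cm x L, the mother was TEmob, a Columbia-0 line with the INTACT tag, and the father was Ler (Landsberg erecta). In L x Cm, the mother was the Ler pistillata mutant pi-1 and the father was TEmob. All 6 libraries thus carry TEmob as 1 parent. TEmob is a single line. Its ancestors were seeds sown on medium with α-amanitin and 40 µM zebularine, an inhibitor of DNA methylation, and held at 37 °C. It was then crossed to cenh3 CENH3-TAILSWAP plants to obtain haploids, and colchicine restored a diploid line. Each cross had 3 libraries. Whether a library is a plant or pool of its own is not in the labels, and p-values thus reflect the spread of these samples alone, part or all of which may be technical. Between the crosses, several things change together and cannot be told apart. They are the accession giving the larger, maternal share of the endosperm genome and the match of transcripts to the Columbia reference. The parent giving the INTACT tag and the treated TEmob lineage, and the pi-1 mutation of the L x Cm mother, belong here too. Endosperm without a TEmob parent was not analysed here.

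MIKC proteins bind DNA as dimers through the MADS domain and assemble into larger complexes through the keratin-like K domain. STK, SHP1 and SHP2 act with SEP proteins to specify ovules, and the B-sister genes TT16 and GOA act in the integuments that become the seed coat. AGL15 and AGL18 are known from embryo, endosperm and flowering control, and PI specifies petals and stamens with its partner AP3. Most of these roles lie in maternal tissue around the endosperm or in floral organs, and the integuments are inherited from the mother alone.

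Libraries held 21.2 to 29.2 M reads, recovered from the step size of the deposited values. The recovered number is a count of whole steps, taken here as reads. Cm x L replicate 3 stood apart, with 10084 loci at 0 against 1005 to 5036 in the 5 other libraries. Markers of endosperm were present in every library, with a summed level over 13 genes of 754 to 795 RPKM (reads scaled to gene length and to the library's total) in Cm x L and 749 to 828 RPKM in L x Cm. That sum covers genes with differences of either sign: 3 of the 13 were called lower in Cm x L (MINI3 at −2.52, IKU2 at −1.51 and TAR1 at −0.87 on the log2 scale) and 2 higher (HDG3 at 1.15 and FIS2 at 0.61). Over all tested loci 18.3% were called lower and 6.73% higher. The sums of other tissues' markers varied more. The 15 seed coat markers summed to 248, 334 and 792 RPKM in the Cm x L libraries (replicates 1, 2 and 3), against 733, 910 and 1023 RPKM in L x Cm. The 11 embryo markers summed to 361, 322 and 196 RPKM in Cm x L and to 211, 228 and 220 RPKM in L x Cm. The 10 pollen markers summed to 138, 754 and 64.4 RPKM in Cm x L and to 810, 3021 and 1162 RPKM in L x Cm. The seed coat transcript BAN, for anthocyanidin reductase, was at 67.4 RPKM or more in each library, so the nuclei were not free of that tissue's markers.

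AGL18 and GOA were lower in Cm x L, and 0 members were higher. The 7 others did not pass the test, and AGL15 had the largest within-cross SD of log2(RPKM + 1) among the members. The test was limma's moderated test on log2(RPKM + 1) with Benjamini-Hochberg adjustment at 0.05 over the 26620 loci averaging 1 RPKM or more. At an unadjusted p under 0.05, 0 members were higher and 3 were lower. Over all tested loci 18.3% were called lower and 6.73% higher, so 2 of 9 is close to the share of lower calls across the table. The median log2 difference (Cm x L minus L x Cm) was −0.12 over the members and −0.22 over all tested loci. That median moved to 0.04 after quantile normalization, where 1 member, AGL18, was called. The groups did not overlap for the same 2 genes, GOA and AGL18, both lower, beside 29.8% of tested loci that were lower and 15.7% that were higher without overlap. In these bulk samples, fewer nuclei of a type and less RNA per nucleus cannot be told apart.

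**Figure D1:**
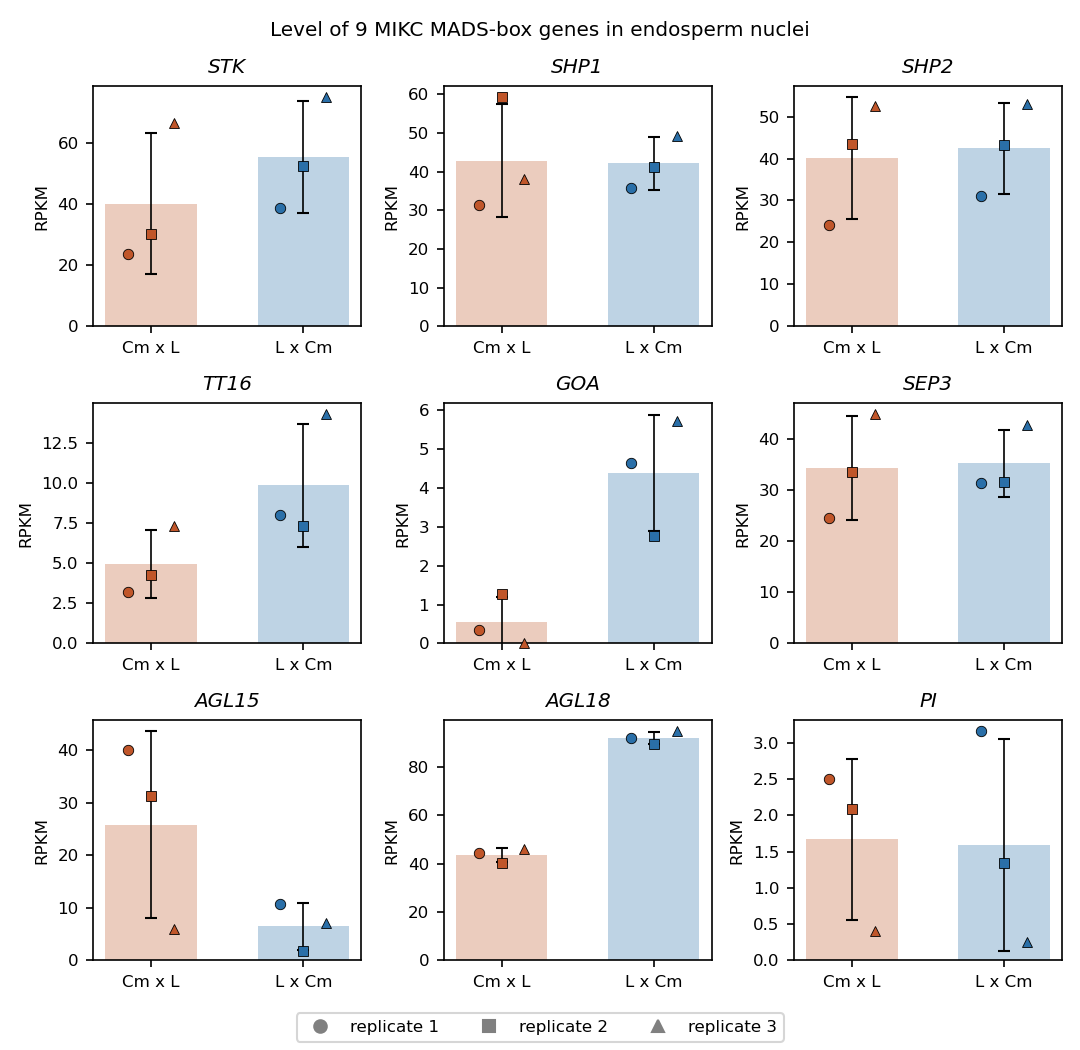
RPKM of the 9 genes (vertical axes, each with its own scale from 0) in Cm x L and L x Cm. Points are libraries with the replicate number given by shape, bars are means and lines are ± 1 SD (n = 3), cut at 0. AGL18 and GOA separate the crosses without overlap, AGL15 is high in 2 Cm x L libraries, and STK is highest in replicate 3 of each cross.

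AGL18, a gene known to be expressed in endosperm and in pollen, had the lowest adjusted p of the members. It had 44.4, 40.4 and 46.1 RPKM in Cm x L, against 91.9, 89.4 and 94.6 RPKM in L x Cm. The 3 libraries of each cross lay close together, and the highest Cm x L library was below the lowest L x Cm library. The means were 43.6 ± 2.91 RPKM in Cm x L and 92.0 ± 2.60 RPKM in L x Cm (SD, n = 3 each), so that L x Cm held 2.11 times the level of Cm x L. The log2 difference was −1.06 (SE 0.14, 95% interval −1.38 to −0.74, limma adjusted p = 0.0060). It stayed called whichever 1 of the 6 libraries was left out, and under every other alternative run (adjusted p from 0.0028 to 0.032). Among the tested loci at its level, 20 RPKM or more on average, 6.70% were called lower and 14.1% higher, and 12.5% were lower without overlap. Its within-cross SD on the log2 scale, 0.07, was at the 2.22 percentile of loci at that level, whose median SD was 0.24. The values rest on 2174, 1597 and 1711 reads in Cm x L and on 4192, 3253 and 3364 reads in L x Cm. AGL18 lay at the 88.1 to 89.4 percentile of all loci in Cm x L and at the 96.1 to 96.3 percentile in L x Cm. The pollen marker sums were also lower in each Cm x L library than in each L x Cm library. Of the 10 pollen markers, 4 were called lower and 0 higher, beside 18.3% and 6.73% of all tested loci. In Cm x L replicate 3, 2 were at 0. The highest pollen sum was 11.7 times the lowest in Cm x L and 3.73 times in L x Cm. The highest AGL18 level, in replicate 3 of each cross, was 1.14 and 1.06 times the lowest. AGL18 was lowest in replicate 2 of each cross, the library with the highest pollen sum. The part of the pollen markers in the AGL18 values was not tested.

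AGL15, closely related to AGL18 and known to promote somatic embryogenesis, had a higher mean level in Cm x L but did not pass the test. It had 40.2, 31.4 and 5.91 RPKM in Cm x L, against 10.7, 1.77 and 7.06 RPKM in L x Cm. Replicates 1 and 2 of Cm x L were above every other library, while replicate 3 lay within the range of L x Cm. The log2 difference was 1.71 (SE 0.74, 95% interval −0.0005 to 3.43, limma adjusted p = 0.12). Without Cm x L replicate 3 it was called higher, at 2.51 (adjusted p = 0.015; the alternatives gave 0.015 to 0.33). Without L x Cm replicate 2 the difference was 1.11. Its within-cross SD, 1.25 on the log2 scale, was at the 98.1 percentile of loci with a mean of 5 to 20 RPKM, of which 6.35% were called higher and 13.4% lower. The AGL18 level was 1.10 and 1.29 times that of AGL15 in Cm x L replicates 1 and 2 and 7.79 times in replicate 3. In L x Cm it was 8.59, 50.5 and 13.4 times. The read numbers behind AGL15 were 1130, 712 and 126 in Cm x L and 280, 37 and 144 in L x Cm, so counting error is small beside these differences.

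Embryo regulators that AGL15 is reported to act on were, like AGL15, lowest in replicate 3 among the Cm x L libraries. FUS3, a B3 regulator of seed maturation, had 54.9, 41.6 and 3.04 RPKM in Cm x L and 12.5, 5.61 and 3.76 RPKM in L x Cm (log2 difference 1.50, adjusted p = 0.25). LEC2, from the same B3 group, had 46.4, 32.5 and 19.3 RPKM in Cm x L, against 16.0, 8.29 and 6.09 RPKM in L x Cm. For LEC2 every Cm x L library was above every L x Cm library, whereas FUS3 overlapped between the crosses through Cm x L replicate 3. ABI3, also among the reported targets, went the other way between the crosses. It had 1.16, 1.46 and 0.756 RPKM in Cm x L and 4.96, 1.43 and 1.99 RPKM in L x Cm (log2 difference −0.74, adjusted p = 0.22). Within L x Cm, AGL15 and ABI3 were lowest in replicate 2, but FUS3 and LEC2 were lowest in replicate 3. LEC2 was called higher (log2 difference 1.61, SE 0.40, adjusted p = 0.025), and it stayed called in 2 of the 6 fits that left out 1 library. The adjusted p was 0.087 when Cm x L replicate 1 was left out, 0.059 for Cm x L replicate 2, 0.083 for L x Cm replicate 2 and 0.058 for L x Cm replicate 3 (0.0070 to 0.087 over the alternatives). The embryo marker sum was likewise lowest in Cm x L replicate 3. Its largest terms on average in Cm x L were LEC1 and WOX8, with 126 and 116 RPKM there and 44.7 and 52.8 RPKM in L x Cm. ATML1 averaged 40.3 RPKM in Cm x L and 50.4 RPKM in L x Cm, where it was level with LEC1 and WOX8. Most of the 11 embryo markers had lower levels in Cm x L: 6 were called lower, among them the meristem and organ boundary genes STM (log2 difference −2.91) and CUC3 (−3.08), 1 was called higher, LEC1 (1.46), and the median was −2.03. Over all tested loci 18.3% were called lower and 6.73% higher. CUC3, PLT1 and DRN, called lower, averaged 0.378, 0.803 and 0.102 RPKM in Cm x L and passed the level filter through L x Cm. The part of these markers in the AGL15 values was not tested.

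The B-sister genes TT16 and GOA were both at lower levels in Cm x L, and only GOA was called. TT16, needed for proanthocyanidin synthesis in the endothelium, the innermost seed coat layer, had 3.22, 4.25 and 7.31 RPKM in Cm x L. In L x Cm it had 7.97, 7.28 and 14.3 RPKM. The crosses overlapped only by Cm x L replicate 3, whose 7.31 RPKM was just above the 7.28 RPKM of L x Cm replicate 2. The log2 difference was −0.87 (SE 0.36, 95% interval −1.69 to −0.05, unadjusted), with a limma adjusted p of 0.10. Without Cm x L replicate 3 it was called, at −1.15 (adjusted p = 0.041; the alternatives gave 0.041 to 0.47). Its reads numbered 96, 102 and 165 in Cm x L and 221, 161 and 308 in L x Cm.

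GOA, which acts in the integuments and limits fruit growth, had 0.343, 1.28 and 0 RPKM in Cm x L, against 4.65, 2.77 and 5.73 RPKM in L x Cm. All Cm x L libraries were below all L x Cm libraries. These values rest on 8, 24 and 0 reads in Cm x L and 101, 48 and 97 reads in L x Cm. In Cm x L replicate 3, 0 reads allow up to 3 reads or 0.170 RPKM, which covers counting error only. The means were 0.540 ± 0.660 RPKM in Cm x L and 4.39 ± 1.50 RPKM in L x Cm (SD, n = 3 each). The log2 difference of RPKM + 1 was −1.85 (SE 0.43, 95% interval −2.84 to −0.86, limma adjusted p = 0.021), a scale that understates the change of such a low gene. GOA passed the level filter through L x Cm alone, and at a mean of 1 to 5 RPKM 33.2% of tested loci were called lower and 0.465% higher, while 51.9% were lower without overlap. The median log2 difference at that level was −1.12. GOA was no longer called when Cm x L replicate 1 was left out (−1.80, adjusted p = 0.080), without L x Cm replicate 1 (−1.80, adjusted p = 0.064) and after quantile normalization (−0.71, adjusted p = 0.25; the alternatives gave 0.022 to 0.25). The TT16 level was 9.40 and 3.33 times that of GOA in Cm x L replicates 1 and 2, against 1.71, 2.63 and 2.49 times in L x Cm.

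The seed coat marker sum was lowest in Cm x L replicates 1 and 2, the libraries with the lowest TT16. GOA differed from TT16 here, with 0.343 and 1.28 RPKM in those libraries and 0 RPKM in Cm x L replicate 3, where the sum was 792 RPKM. Of the 15 markers, 3 were called lower and 0 higher, and 5 were lower without overlap between the crosses, beside 18.3% of all tested loci called lower and 29.8% lower without overlap. TT1, a zinc finger gene of the endothelium, had 50.7, 59.0 and 270 RPKM in Cm x L and 370, 401 and 413 RPKM in L x Cm. None of the 15 was at 0 in Cm x L, and KAN4 was at 0 in L x Cm replicate 3. The part of these markers in the TT16 and GOA values was not tested.

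**Figure D2:**
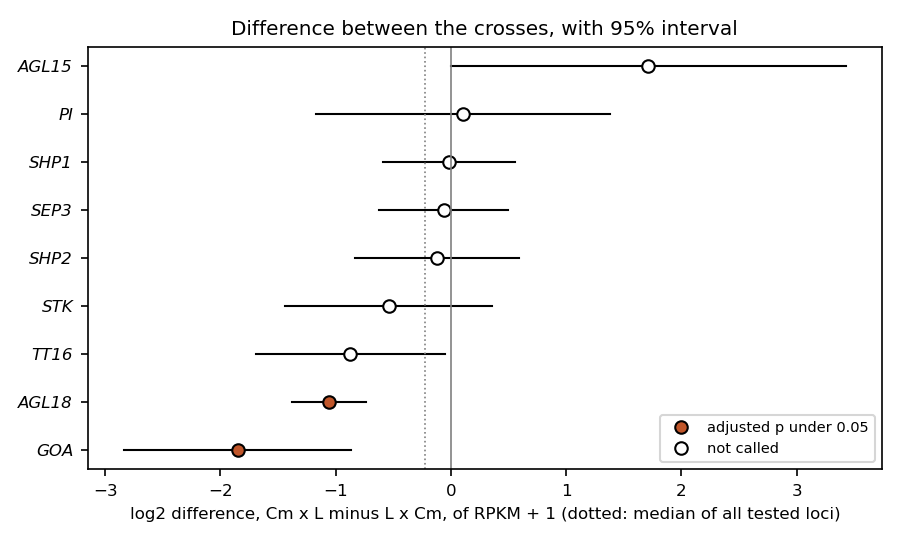
Log2 difference of RPKM + 1 between the crosses (Cm x L minus L x Cm, horizontal axis) for the 9 genes, with unadjusted 95% intervals from limma. Filled points have an adjusted p under 0.05. GOA (−1.85) and AGL18 (−1.06) are filled, the interval of TT16 ends just below 0, and the dotted line is the median of all tested loci (−0.22).

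Ovule identity genes were among the more abundant members, and none of them was called between the crosses. STK, the class D gene of ovule and seed coat that also acts in seed detachment, had 23.6, 30.3 and 66.4 RPKM in Cm x L. In L x Cm it had 38.6, 52.2 and 74.7 RPKM. The crosses overlapped, with replicate 3 the highest and replicate 1 the lowest library of each. The log2 difference was −0.54 (SE 0.39, 95% interval −1.44 to 0.35, limma adjusted p = 0.32). Without Cm x L replicate 3 it was −0.97 and was called lower (adjusted p = 0.036; the alternatives gave 0.036 to 0.69). The difference was −0.24 without Cm x L replicate 1 and −0.30 without L x Cm replicate 3. The spread of STK within a cross, 0.63 on the log2 scale, was at the 90.3 percentile of loci averaging 20 RPKM or more. Its ratio to TT16 varied less, from 7.13 to 9.09 in Cm x L and from 4.85 to 7.18 in L x Cm.

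SHP1 and SHP2, close paralogs that also set the valve margins where the fruit opens, had nearly equal means in the crosses. SHP1 had 31.3, 59.2 and 38.1 RPKM in Cm x L, against 35.8, 41.3 and 49.4 RPKM in L x Cm. SHP2 had 24.1, 43.5 and 52.5 RPKM in Cm x L, against 31.1, 43.2 and 52.9 RPKM in L x Cm. Both genes overlapped between the crosses, and the SHP2 values of Cm x L replicates 2 and 3 were close to those of L x Cm replicates 2 and 3. The log2 difference was −0.01 for SHP1 (95% interval −0.59 to 0.56, adjusted p = 0.97) and −0.12 for SHP2 (95% interval −0.83 to 0.60, adjusted p = 0.80). SHP1 stood at 1.30, 1.36 and 0.726 times SHP2 in Cm x L and at 1.15, 0.955 and 0.933 times in L x Cm. How reads shared by these paralogs were assigned is not given in the sources used here. An annotated long noncoding RNA on the opposite strand, AT2G42835, covers 1756 bases of the SHP2 locus and had 15.2, 29.6 and 32.4 RPKM in Cm x L and 21.6, 32.8 and 36.4 RPKM in L x Cm. Because the use of strand is not given either, reads of SHP2 and of this RNA cannot be told apart. SHP1 and STK also overlap opposite-strand loci at their ends, by 447 and 186 bases with protein-coding neighbours that had at most 6.37 and 5.56 RPKM. A further long noncoding RNA, AT3G09155, overlaps SHP1 by 564 bases and was not analysed here.

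SEP3, whose protein bridges MADS-box complexes of flower and ovule, had 24.6, 33.6 and 44.9 RPKM in Cm x L, against 31.4, 31.6 and 42.9 RPKM in L x Cm. The crosses overlapped, and replicate 3 was again the highest in each. The log2 difference was −0.06 (SE 0.24, 95% interval −0.62 to 0.49, limma adjusted p = 0.86).

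PI was the least abundant member in L x Cm and the next to least in Cm x L. It had 2.50, 2.09 and 0.412 RPKM in Cm x L, against 3.16, 1.35 and 0.258 RPKM in L x Cm. Replicate 3 was the lowest library of each cross and the ranges overlapped. The reads numbered 80, 54 and 10 in Cm x L and 94, 32 and 6 in L x Cm, so the replicate 3 values are the least precise. The log2 difference was 0.11 (SE 0.55, 95% interval −1.17 to 1.38, limma adjusted p = 0.90), an interval that leaves a change of either sign possible. The mother of L x Cm carried pi-1, so the maternal PI copies in that endosperm are mutant. The labels do not give the lesion, and the PI level therefore does not check the cross. AP3, the partner gene of PI, was far more abundant, with 18.1, 33.1 and 57.8 RPKM in Cm x L and 30.6, 47.6 and 59.7 RPKM in L x Cm. The AP3 level was 7.25, 15.8 and 140 times that of PI in Cm x L and 9.71, 35.3 and 231 times in L x Cm. AP3, SEP1 and SEP2 were named after their values were seen. AP3 was also highest in replicate 3 of each cross and did not pass the test (log2 difference −0.43, adjusted p = 0.45).

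In Cm x L, the mean levels ran from AGL18 (43.6 RPKM) through SHP1 (42.9), STK (40.1), SHP2 (40.1), SEP3 (34.4) and AGL15 (25.8) to TT16 (4.93), PI (1.67) and GOA (0.540). Neighbours in that order overlapped between libraries, except TT16 and PI. In L x Cm, the order was AGL18 (92.0 RPKM), STK (55.2), SHP2 (42.4), SHP1 (42.2), SEP3 (35.3), TT16 (9.83), AGL15 (6.51), GOA (4.39) and PI (1.59). There only the neighbours AGL18 and STK, and SEP3 and TT16, had no overlap. RPKM is scaled by length, so these levels can be set roughly side by side. For SHP1, SHP2 and STK the limits given above on shared or opposite-strand reads remain. Replicate 3 was the highest library of both crosses for 5 members (STK, SHP2, SEP3, TT16 and AGL18), while replicate 1 was highest in both for AGL15 and PI.

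**Figure D3:**
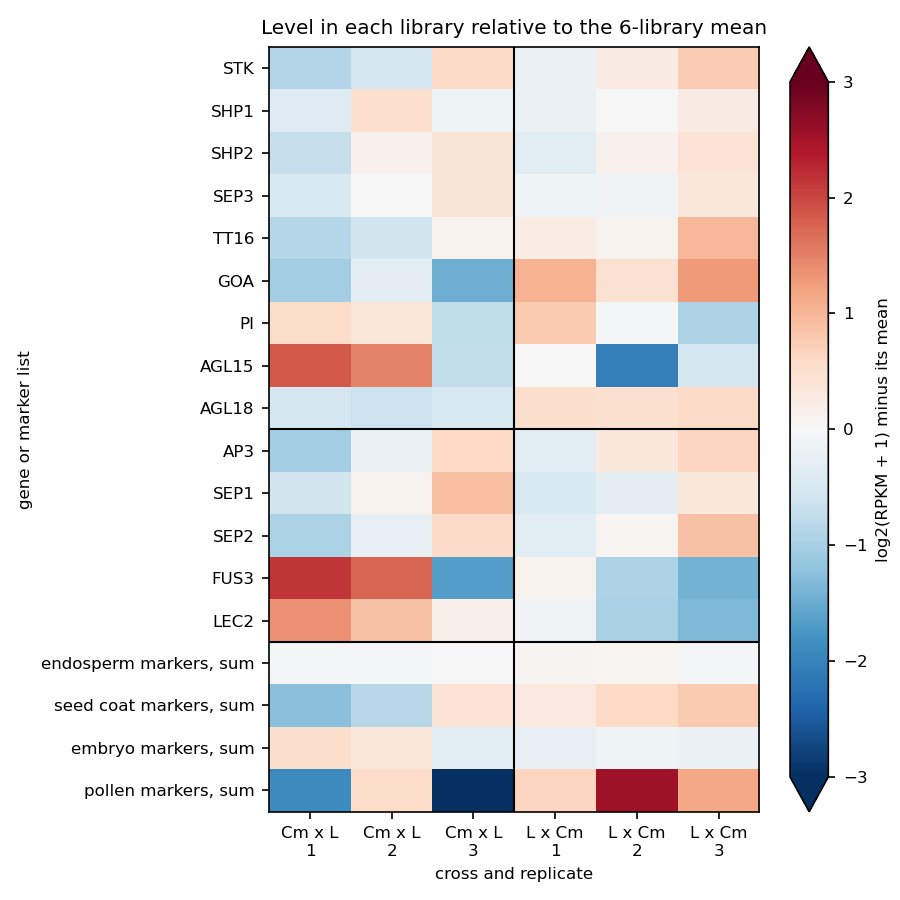
Level in each library as log2(RPKM + 1) minus its mean over the 6 libraries (colour, with values beyond ±3 at the ends of the scale), for the 9 genes, 5 related genes and the summed marker lists. Columns are Cm x L replicates 1 to 3 and L x Cm replicates 1 to 3. STK, AP3 and SEP2 are high in replicate 3 of each cross, AGL15 and FUS3 are high in Cm x L replicates 1 and 2, and the endosperm sum lies between 749 and 828 RPKM, although 5 of its 13 genes were called in one direction or the other.

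The loci most like each member in their log2(RPKM + 1) over the 6 libraries were looked for among 7100 named protein-coding loci averaging 5 RPKM or more. With 6 libraries and so many loci, high coefficients arise readily, and they are given as a description. STK was most like TBL45 and HTH (Pearson r = 0.999 and 0.998). HTH, a gene of organ fusion and cuticle, had 19.1, 26.2 and 63.1 RPKM in Cm x L and 33.8, 44.7 and 70.5 RPKM in L x Cm. AGL18 was most like AS1, a MYB gene of leaf development, and ABI4, an AP2 gene of abscisic acid response (r = 0.998 and 0.996). ABI4 had 2.08, 2.06 and 2.47 RPKM in Cm x L, against 15.8, 17.8 and 18.1 RPKM in L x Cm, so it shared the tight groups of AGL18. AGL15 was most like 3xHMG-box1, a chromosome-binding HMG protein gene, and AGP20 (r = 0.995 and 0.984). 3xHMG-box1 had 92.6, 85.5 and 33.6 RPKM in Cm x L and 42.7, 21.6 and 35.0 RPKM in L x Cm. The nearest loci were CDPK6 and KAB1 for TT16 (r = 0.999 and 0.987), RFI2 and ADS1 for GOA (r = 0.995 and 0.993) and NQR and GH9B7 for SEP3 (r = 0.994 and 0.990). SHP2 was most like MEE32 and TBL38 (r = 0.990 and 0.985), PI was most like CYP705A22 and TOM2B (r = 0.989 and 0.978), and SHP1 was most like IQD28 and NEF1 (r = 0.946 and 0.914).

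Of the 36 other MIKC and MIKC* genes, 30 were tested, 10 were lower in Cm x L and 0 were higher. At an unadjusted p under 0.05, 12 were lower and 0 higher. The median log2 difference was −0.68, against −0.22 over all tested loci. Over all tested loci 18.3% were called lower. By level, 6 of the 17 genes with a mean under 5 RPKM were called lower, beside 33.2% of loci at that level. Of the 7 genes at 5 to 20 RPKM 3 were called (AGL6, MAF4 and MAF5), beside 13.4% of loci, and of the 6 genes averaging 20 RPKM or more 1 was called (MAF2), beside 6.70%. Of the 10 called genes, 5 had a Cm x L mean under 1 RPKM and passed the filter through L x Cm. The count of lower genes was 4 after quantile normalization. It was 2 without Cm x L replicate 1, 4 without L x Cm replicate 1 and 5 without L x Cm replicate 2.

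AGL24, an activator of the floral transition, had 0.0975, 0.322 and 0 RPKM in Cm x L, against 14.6, 6.48 and 5.69 RPKM in L x Cm (log2 difference −3.02, SE 0.41, limma adjusted p = 0.0064). FLC, the flowering repressor, had 1.28, 1.79 and 0 RPKM in Cm x L, against 9.35, 8.35 and 4.69 RPKM in L x Cm (−2.14, adjusted p = 0.018). MAF5, a relative of FLC, had 3.51, 4.39 and 5.51 RPKM in Cm x L, against 21.5, 13.7 and 14.5 RPKM in L x Cm (−1.67, adjusted p = 0.0079). For each of these genes all Cm x L libraries were below all L x Cm libraries. AGL24 and MAF5 stayed called whichever 1 of the 6 libraries was left out, and FLC in 3 of those fits. CAL, a paralog of AP1, had 3 reads in all over Cm x L and 258 over L x Cm (0.0382 against 3.41 RPKM on average, −1.97, adjusted p = 0.020). SEP4 averaged 0.289 against 3.42 RPKM, AGL12 averaged 0.782 against 4.63 RPKM and AGL104, a gene of pollen maturation, averaged 0.446 against 3.78 RPKM, each with Cm x L first. AGL6 averaged 5.35 RPKM in Cm x L and 12.2 RPKM in L x Cm. The calls of SEP4 and AGL12 held in 5 of those 6 fits, that of CAL in 4, that of AGL104 in 3 and that of AGL6 in 2.

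The other called genes were MAF2 and MAF4, neighbours of MAF5 in a tandem cluster. MAF2 was the most abundant of the called MIKC genes, with 164, 161 and 94.2 RPKM in Cm x L, against 283, 228 and 266 RPKM in L x Cm (−0.92, adjusted p = 0.033, held in 2 of 6 fits). MAF4 was called in 1 of 6 (−0.94, adjusted p = 0.048). Their neighbour MAF3 overlapped between the crosses (38.1 ± 2.84 RPKM in Cm x L and 41.6 ± 2.14 RPKM in L x Cm; −0.12, adjusted p = 0.54), as did MAF1 (42.9 ± 4.49 RPKM in Cm x L and 35.1 ± 3.99 RPKM in L x Cm; 0.28, adjusted p = 0.21). MAF2 to MAF5 are similar in sequence, and how reads shared by them were assigned is not given. SEP1 and SEP2, near-duplicates that overlap in function with SEP3, did not pass (0.30 and −0.42, adjusted p = 0.57 and 0.49).

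**Figure D4:**
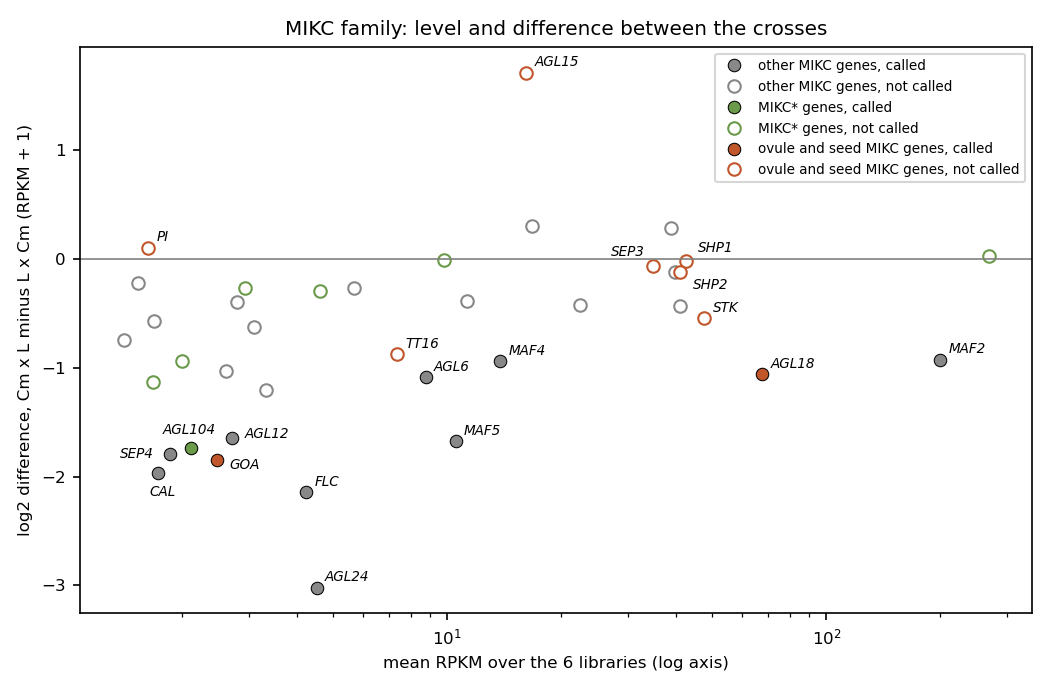
Mean RPKM over the 6 libraries (horizontal log axis) against the log2 difference of RPKM + 1, Cm x L minus L x Cm (vertical axis), for the 39 tested MIKC and MIKC* genes. Filled points have an adjusted p under 0.05. All 12 filled points lie below 0, 7 of them at a mean under 5 RPKM, and AGL18 and MAF2 are the filled points averaging 20 RPKM or more.

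Genes reported as targets of the members were also examined. Of 11 such genes 10 were tested, and 3 were lower and 1, LEC2, was higher in Cm x L, beside 18.3% of all tested loci called lower and 6.73% called higher. IND, a valve margin gene downstream of SHP1 and SHP2, had 1.85, 1.63 and 0.265 RPKM in Cm x L, against 12.0, 11.6 and 7.97 RPKM in L x Cm. Its log2 difference was −2.43 (SE 0.39, limma adjusted p = 0.0082), and IND stayed called whichever 1 library was left out. Neither SHP gene was called, and the relation of IND to their levels was not tested. ALC, a gene of the same fruit margin, did not pass (52.3 ± 8.82 RPKM in Cm x L and 53.6 ± 5.99 RPKM in L x Cm; −0.04, adjusted p = 0.87).

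VDD, a B3 gene described as bound by STK and SEP3 in the ovule, had 2.25, 2.85 and 1.36 RPKM in Cm x L, against 6.14, 11.7 and 9.44 RPKM in L x Cm (−1.67, adjusted p = 0.015, held in 4 of 6 fits). VAL, the gene for its partner protein, overlapped between the crosses (38.4 ± 14.1 RPKM in Cm x L and 36.6 ± 7.59 RPKM in L x Cm; 0.02, adjusted p = 0.97). GA2OX6, a gibberellin-inactivating enzyme gene reported as raised by AGL15, had 0, 1.81 and 0.101 RPKM in Cm x L, against 8.65, 5.95 and 5.14 RPKM in L x Cm (−2.35, adjusted p = 0.014, held in 4 of 6 fits). GA2OX6 passed the level filter through L x Cm alone (mean 0.636 RPKM in Cm x L and 6.58 RPKM in L x Cm). Its libraries did not overlap. At a mean of 1 to 5 RPKM, 33.2% of tested loci were called lower and 51.9% were lower without overlap. The relation of GA2OX6 to the AGL15 level was not tested. BAN, which depends on TT16 in the endothelium and is also on the seed coat list, had 67.4, 97.7 and 264 RPKM in Cm x L and 131, 214 and 299 RPKM in L x Cm (−0.75, adjusted p = 0.29). Like STK, BAN was highest in replicate 3 of each cross. ABI3 and NAP did not pass (adjusted p = 0.22 and 0.16), and IAA30 was below the level filter.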

How the data were processed

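The authors aligned reads with TopHat2 version 2.1.0 and used the build TAIR10, per the submitters' processing notes. The deposited table holds RPKM, scaled by the authors to gene length and library total. The counting tool and its handling of strand and of shared reads were not given in the sources used here. Columns were matched to samples by parent order and replicate number, and 0 were left unmapped. Symbols came from RefSeq TAIR10.1. It differs in name from the authors' build, so no coordinates are printed. Reads were recovered as whole steps, tested on pseudogenes under 30 reads, of which 99.7 to 99.9% were whole within 0.02. For each member the shortest length that made all 6 values whole within 0.02 was taken, and any other such length was a multiple of it.

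Values were analysed as log2(RPKM + 1) with limma 3.58.1 in R 4.3.3 (intensity trend, 2-sided, cross as the only term), after a test on simulated data. In that test 9% of 100 changes of 1 log2 unit were called, and 82% of 100 changes of 3 units. The rest of its 26620 loci were left unchanged, whereas 1792 were called higher and 4870 lower in the data. The adjustment was thus stricter in the simulation, and these shares do not measure how often the reported test finds such changes. Even so, a gene that was not called is not shown to be unchanged. An exact test of 3 against 3 cannot go below p = 0.10. A call is an adjusted p under 0.05. Tables and figures were made with pandas 2.3.3, numpy 2.4.6, matplotlib 3.10.9 and Python 3.11.15. Members, lists and alternatives were chosen with earlier results of these data known. Of the other MIKC genes called, the 8 with the largest difference were to be named, as was every called target, and for each member the 2 loci with the highest correlation. MAF2 and MAF4 were added after their values were seen. Alternatives were pseudocounts of 0.1 and 5, no filter, a mean of at least 5 RPKM, quantile normalization, a replicate block and fits without 1 library. Sequences of the members were not used here.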

Additional observations from a re-analysis of the deposited data

How the results depend on the processing

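Over all tested loci, lower calls numbered 4870 as reported, 1322 with a mean of at least 5 RPKM and 1739 after quantile normalization. Without 1 library, lower calls ran from 1243 to 5231 and higher calls from 359 to 2280, beside 1792. Members called lower numbered 2 as reported, 1 with a mean of at least 5 RPKM (which leaves out GOA and PI) and 1 after quantile normalization. They ran from 1 to 4 without 1 library, and members called higher from 0 to 1. Other MIKC and MIKC* genes called lower numbered 10 as reported, 3 with a mean of at least 5 RPKM and 4 after quantile normalization, and 2 to 11 without 1 library. Reported targets called higher ran from 0 to 2 without 1 library and those called lower from 1 to 4. The cause of these moves was not tested, except that the stricter filter tests fewer loci.

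Of 267 refitted differences of named genes, 207 kept direction and call, 46 lost the call, 4 gained it and 10 turned sign. Each of the 10 was of an uncalled member in a fit without 1 library. Over those fits the log2 difference ran from −0.27 to 0.18 for SHP1, from −0.34 to 0.20 for SHP2, from −0.27 to 0.15 for SEP3 and from −0.33 to 0.53 for PI.

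Labels number replicates 1 to 3 in each cross without saying that a number marks a shared batch. Deviations of same-numbered libraries correlated at 0.08, 0.15 and 0.20, and L x Cm replicate 1 correlated best with Cm x L replicate 2 (0.12), so the numbers were not taken to pair the samples. With a replicate block 3 members were lower, TT16 being added (adjusted p = 0.047), and STK had an adjusted p of 0.062. Over all loci the block gave 1963 higher and 4887 lower calls. Depth limits GOA, PI and the low MIKC genes most, where 1 read is worth up to 0.0591 RPKM for GOA.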
